A study of Mus musculus with 7 samples.

Results

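The interferon response and antigen presentation genes of this report are a set of 36 mouse genes, taken by symbol from a fixed list, and all 36 were found among the 55536 genes of the deposited tables. They comprise 6 transcriptional regulators, 4 sensors of foreign RNA or DNA, 11 antiviral effectors, 5 enzymes of the ISG15 and ubiquitin systems, 4 major histocompatibility complex (MHC) class I molecules, 3 proteins that load peptides on them and 3 subunits of the immunoproteasome. Their raw transcript counts were summed per cell type in each well of the first barcoding round, separately for single cells and single nuclei of the hippocampus.

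Arctic48 (Arc) mice are hemizygous for a human APP transgene with the Swedish, Indiana and Arctic mutations on C57BL6/J. Wild-type (WT) mice were offspring of the crosses to C57BL6/J that did not carry it. Mice of both genotypes, aged 10 months, drank plain MilliQ water (veh) or water with PMX205 (PMX), an antagonist of the complement receptor C5aR1, at 20 µg/ml for 12 weeks by the sample records, though other descriptions of the study differ on the length. The 4 groups are named by genotype and drink, as in WT-veh, and 4 values in a row follow the order WT-veh and WT-PMX, then Arc-veh and Arc-PMX. A well of nuclei came from 1 mouse, whereas a well of single cells pooled 2 to 3 like-treated mice of 1 genotype and sex, whose cells were dissociated with inhibitors of transcription and translation and selected on CD11b, a surface protein of microglia. In each preparation a group had 6 wells, with 3 from female mice (F1, F2, F3) and 3 from male mice (M1, M2, M3).

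Type I and type II interferons signal through Janus kinases to STAT transcription factors. STAT2 acts with IRF9 in a complex that binds interferon-stimulated response elements, and type II interferon switches on IRF1 and the class I transactivator NLRC5. The induced proteins recognise viral RNA, block its translation or mark proteins with ISG15. Others cut proteins into peptides, carry the peptides into the endoplasmic reticulum and present them on MHC class I. In the brain, microglia and astrocytes are known to respond to interferon, and such responses have been described around amyloid.

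Levels are given in CPM, the transcripts of a gene per 1000000 transcripts of that cell type in a well, and tests used edgeR's quasi-likelihood fit on the counts of wells holding 10 or more cells of the type, with the adjustment of p over all genes tested. A member was called where the adjusted p was under 0.05. "Arc minus WT" compares the 12 Arc with the 12 WT wells regardless of treatment. The filters left 43885 nuclei and 3823 single cells. Astrocyte nuclei (5443 in 24 wells) held 101649 to 1145684 transcripts per well, microglial nuclei (1503 in 21 wells) 8008 to 299393, oligodendrocyte nuclei (4163 in 24 wells) 12174 to 587044, nuclei of oligodendrocyte progenitor cells (OPCs, 1330 in 24 wells) 53629 to 301852, neuronal nuclei (24287 in 24 wells) 3372763 to 24334879 and single-cell microglia (2089 in 17 wells) 6579 to 794923. The study's records state that 1 WT sample was excluded as Arctic, without naming it. No well was left out here, and calls that the loss of WT-veh F2, the WT label that earlier results of these data had put in doubt, would end are named. In astrocyte nuclei WT-veh F2 had 12.8 CPM of *Nlrc5*, within the range of the other WT wells. In single-cell microglia the well labelled WT-veh F2 had 94.4 CPM, the highest of the WT wells (0.0 to 84.2 in the others) and within the Arc-veh range of 84.9 to 204. These WT-veh wells held 6579 to 52947 transcripts and the WT-PMX wells 23741 to 41806, so these values rest on few transcripts. As *Nlrc5* is itself a member, its level does not settle the genotype of either well.

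In astrocyte nuclei, members of the set were higher in Arc than in WT mice, led by *Ddx60*, a sensor of foreign RNA, *Nlrc5*, the transactivator of MHC class I genes, and *Oasl2*, an antiviral protein of the oligoadenylate synthetase family. Of the 36 members 13 had enough transcripts to be tested there and 12 were called higher in Arc minus WT, where 11.5% of all genes tested were called higher. A gene with enough transcripts in only one genotype can pass the filter on low counts through that genotype, so the share called among the members tested is not a share of the set. DESeq2 called the same number, 12, higher. In Arc-veh minus WT-veh 11 members were called higher against 7.53% of all genes, and DESeq2 also called 11. Leaving out WT-veh F2 kept the 12 calls and 10 of the 11. *Ifih1* was lost at an adjusted p of 0.0639, with a log2 fold change of 1.16 against 1.23 with all wells. In Arc-veh minus WT-veh *Parp14* was lost without Arc-veh M2 (log2 1.35) and, like *Tap2*, without WT-veh M1.

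Promoters of the members were searched for the letters GAAANNGAAA (the reverse strand reads TTTCNNTTTC), the core of an interferon-stimulated response element, in windows of 250 bases before to 50 bases after the RefSeq gene start. The letters stood in 11 of the 27 members with a RefSeq window (40.7%) and in 3.44% of 32851 mouse promoters. Among the 12 members called in astrocyte nuclei 8 had a window and 5 held the letters, namely *Stat2*, *Ifih1*, *Ddx58*, *Ddx60* and *Trim30a*, whereas *Oasl2*, *Rnf213* and *Herc6* did not. The letters TTCNNNGAA, the core of a gamma-activated site, stood in 4 of the 27 windows (14.8%) and in 8.3% of all promoters, and in 0 of the 8 windows of called members. A match describes the sequence and not a bound site. The stretches that hold the letters in the 5 called members are shown as the matches behind this count, in RefSeq sequence of GRCm38.p6 read 5′ to 3′ along the gene's strand, with the match in capitals. The first, *Ddx60*, is chr8:61927837-61928086 on the plus strand and holds the letters at 53 and at 19 bases before the gene start. *Trim30a* has a second RefSeq start whose window, chr7:104446076-104446375, also holds the letters and is not shown. The next are *Trim30a* at chr7:104465194-104465443 (minus strand) and *Stat2* at chr10:128270248-128270497 (plus strand), followed by 30 bases around the match of *Ddx58* at chr4:40239804-40239833 and of *Ifih1* at chr2:62646206-62646235, both on the minus strand and past the gene start.
Ddx60: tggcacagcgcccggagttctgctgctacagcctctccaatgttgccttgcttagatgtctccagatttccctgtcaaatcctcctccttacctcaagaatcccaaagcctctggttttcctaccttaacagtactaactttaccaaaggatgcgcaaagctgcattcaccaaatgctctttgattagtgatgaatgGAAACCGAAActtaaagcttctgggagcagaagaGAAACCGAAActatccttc
Trim30a: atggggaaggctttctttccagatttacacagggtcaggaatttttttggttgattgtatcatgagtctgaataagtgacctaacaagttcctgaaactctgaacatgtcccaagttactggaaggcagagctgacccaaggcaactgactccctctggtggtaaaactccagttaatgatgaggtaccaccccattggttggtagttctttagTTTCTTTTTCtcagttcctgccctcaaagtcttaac
Stat2: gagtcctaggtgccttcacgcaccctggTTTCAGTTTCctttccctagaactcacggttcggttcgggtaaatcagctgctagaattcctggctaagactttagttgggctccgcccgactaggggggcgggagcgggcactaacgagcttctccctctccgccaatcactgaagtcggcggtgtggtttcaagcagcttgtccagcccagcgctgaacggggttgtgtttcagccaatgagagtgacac
Ddx58: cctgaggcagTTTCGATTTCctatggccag
Ifih1: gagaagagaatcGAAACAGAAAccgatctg

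Among the regulators, *Nlrc5* (chr8:94434356-94527272, GENCODE annotation of GRCm38, as are all gene spans below) ranged from 0.0 to 25.5 CPM in WT-veh wells (median 8.9), from 4.21 to 21.9 in WT-PMX (8.62), from 62.4 to 114.0 in Arc-veh (92.6) and from 46.7 to 88.6 in Arc-PMX (63.4). Every Arc well lay above every WT well, and the Arc minus WT difference was 2.65 ± 0.21 (log2 fold change ± SE, adjusted p = 9.31e-13). Here and below, how many of all genes separated the wells in this way was not counted. Genes picked by a small adjusted p tend to separate them, so a lack of overlap is a description only. *Stat2* (chr10:128270559-128292849), a transcription factor of type I interferon signalling, had 30.2 to 59.0 CPM in WT-veh wells (median 37.7), 32.1 to 58.8 in WT-PMX (42.3), 72.3 to 132.0 in Arc-veh (84.2) and 57.3 to 101.0 in Arc-PMX (83.3). Of the 12 Arc wells 11 were above all WT wells, with a log2 fold change of 1.05 ± 0.14 (adjusted p = 1.43e-07). The other regulators were too sparse for the test. *Irf9*, the DNA-binding partner of STAT2, had 8, 14, 61 and 50 transcripts over the wells of the 4 groups, and *Irf7*, the amplifier of type I interferon production, had 0, 1, 10 and 10. *Irf1* had 17, 17, 51 and 35 transcripts, and *Ciita*, the transactivator of MHC class II genes, had 4, 7, 6 and 4.

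**Figure D1:**
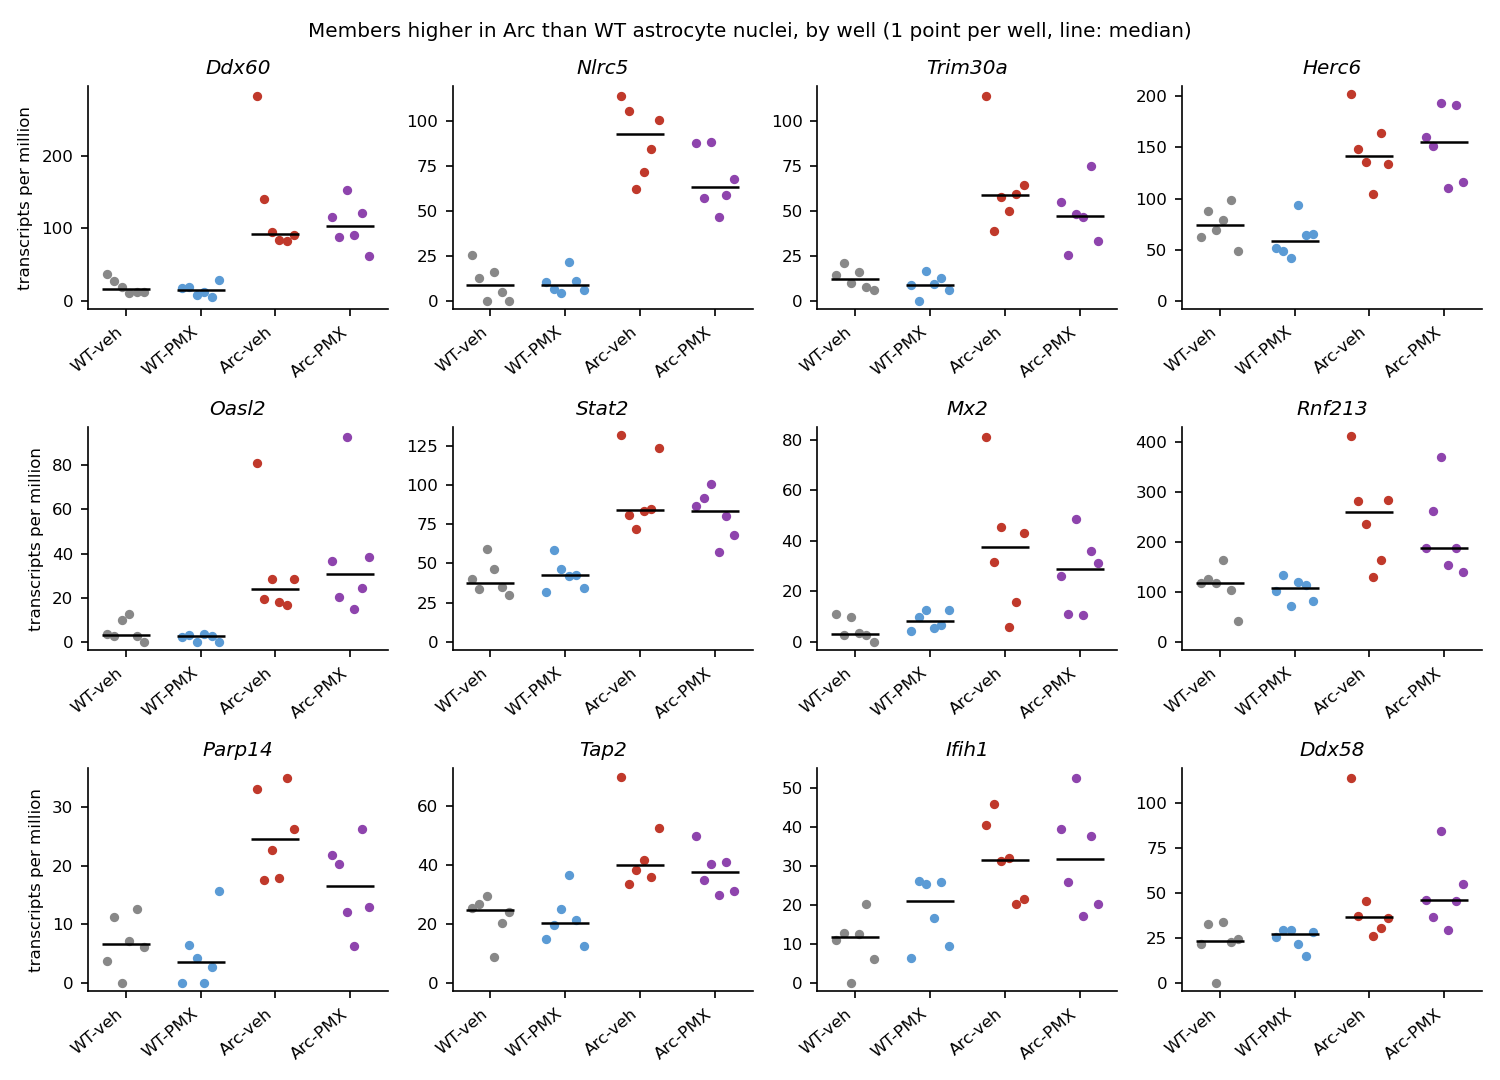
CPM (linear axis from 0) in every well of astrocyte nuclei for the 12 members called in Arc minus WT, with 1 point per well, 6 wells for each of the 4 groups and a line at each group's median. The Arc wells of Ddx60, Nlrc5, Oasl2, Herc6 and Trim30a lie above all WT wells, and both Arc groups overlap for every gene. Such separation was not counted over all genes tested.

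All 4 sensors had more transcripts in Arc, and 3 of them were tested and called. *Ddx60* (chr8:61928087-62038244), a helicase that assists RIG-I-like receptors, lay between 10.7 and 36.5 CPM in WT-veh wells (median 16.1), 5.55 and 28.2 in WT-PMX (15), 82.6 and 283.0 in Arc-veh (93.0) and 62.5 and 153.0 in Arc-PMX (104.0). No Arc well overlapped with a WT well, and the log2 fold change was 2.71 ± 0.22 (adjusted p = 9.31e-13). *Ifih1* (chr2:62595798-62646255), which encodes the double-stranded RNA sensor MDA5, lay between 0.0 and 20.2 CPM in WT-veh wells (median 11.7), 6.42 and 26.1 in WT-PMX (20.8), 20.1 and 45.8 in Arc-veh (31.5) and 17 and 52.4 in Arc-PMX (31.7). Here the groups overlapped, with 7 of the 12 Arc wells above all WT wells, and the log2 fold change was 0.96 ± 0.24 (adjusted p = 0.00235).

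*Ddx58* (chr4:40203773-40239828), which encodes RIG-I, had 0.0 to 33.9 CPM in WT-veh wells (median 23.4), 14.8 to 29.4 in WT-PMX (26.9), 25.9 to 114.0 in Arc-veh (36.4) and 29.7 to 84.6 in Arc-PMX (46.0). It was called in Arc minus WT (0.82 ± 0.21, adjusted p = 0.00419) and not in Arc-veh minus WT-veh (0.64 ± 0.31, adjusted p = 0.206), the only called member for which this was so. *Zbp1*, a sensor of Z-form nucleic acid, was too sparse for the test with 0, 1, 10 and 3 transcripts in the 4 groups.

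Of the antiviral effectors 4 were called. *Oasl2* (chr5:114896936-114912234) had 0.0 to 12.5 CPM in WT-veh wells (median 3.24), 0.0 to 3.66 in WT-PMX (2.46), 16.9 to 80.9 in Arc-veh (23.9) and 14.9 to 92.7 in Arc-PMX (30.6). All Arc wells were above all WT wells, and its log2 fold change of 2.95 ± 0.38 (adjusted p = 8.23e-08) had the highest point estimate of the 12 called members. *Mx2* (chr16:97535308-97560900), a dynamin-like GTPase whose mouse gene is annotated as a polymorphic pseudogene, had 0.0 to 10.9 CPM in WT-veh wells (median 3.2), 4.28 to 12.6 in WT-PMX (8.14), 5.97 to 80.9 in Arc-veh (37.4) and 10.6 to 48.4 in Arc-PMX (28.7). In 9 of 12 Arc wells *Mx2* exceeded all WT wells, with a log2 fold change of 2.29 ± 0.36 (adjusted p = 3.55e-06). Of its exon windows of 50 bases 4.38% also occur in *Mx1*, so some reads of the pair may be misplaced.

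*Rnf213* (chr11:119393100-119487418), a large ubiquitin ligase of antimicrobial defence, had 42.3 to 164.0 CPM in WT-veh wells (median 117.0), 71.5 to 134.0 in WT-PMX (107.0), 129.0 to 412.0 in Arc-veh (259.0) and 140.0 to 371.0 in Arc-PMX (189.0). The log2 fold change was 0.95 ± 0.15 (adjusted p = 4.9e-06), and 8 of 12 Arc wells were above all WT wells. *Parp14* (chr16:35832874-35871544), an ADP-ribosyltransferase, had 0.0 to 12.6 CPM in WT-veh wells (median 6.59), 0.0 to 15.6 in WT-PMX (3.49), 17.6 to 34.9 in Arc-veh (24.5) and 6.37 to 26.2 in Arc-PMX (16.6). It rose by 1.83 ± 0.33 on the log2 scale (adjusted p = 4.56e-05), with 9 of 12 Arc wells above the WT wells.

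The other 7 effectors did not pass the filter. *Mx1* had 0 and 1 transcripts in WT-veh and WT-PMX and 34 and 24 in Arc-veh and Arc-PMX, and *Oas2*, a synthetase of the RNase L pathway, had 1, 0, 22 and 31 with every Arc well above every WT well. *Rsad2*, which encodes viperin, had 5, 11, 54 and 83 transcripts, and *Xaf1*, an interferon-induced regulator of apoptosis, had 13, 13, 64 and 63. The translation inhibitors *Ifit2* and *Ifit3* had 5, 16, 42 and 47 and 7, 1, 28 and 30 transcripts, though 51.2% of the exon windows of *Ifit3* also occur in another gene. *Bst2*, a tether of budding virus, had 0, 1, 6 and 9.

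In the ISG15 and ubiquitin group 2 members were called. *Trim30a* (chr7:104409025-104465193), a tripartite motif protein, had 6.04 to 21.3 CPM in WT-veh wells (median 12.2), 0.0 to 16.8 in WT-PMX (8.85), 38.7 to 114.0 in Arc-veh (58.7) and 25.8 to 75.2 in Arc-PMX (47.5). *Herc6* (chr6:57581000-57664632), the mouse ligase for ISG15, had 48.3 to 98.3 CPM in WT-veh wells (median 73.7), 42.1 to 93.3 in WT-PMX (58.1), 104.0 to 202.0 in Arc-veh (142.0) and 110.0 to 193.0 in Arc-PMX (155.0). For both genes all Arc wells lay above all WT wells, with log2 fold changes of 2.15 ± 0.24 (adjusted p = 4.24e-09) and 1.05 ± 0.13 (adjusted p = 5.02e-08). Windows shared with other genes made up 5.98% of *Trim30a* and 12.5% of *Herc6*.

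*Trim25*, a ligase that activates RIG-I, was tested and not called, at 0.69 ± 0.26 (adjusted p = 0.0561). *Usp18*, the protease that removes ISG15, had 6, 1, 34 and 32 transcripts in the 4 groups. *Isg15* itself had 0, 0, 2 and 0 transcripts, which is too few to compare.

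Of the 10 genes that make, load or are MHC class I, *Tap2* (chr17:34203527-34216321), a chain of the peptide transporter, was the single member tested. It had 8.93 to 29.5 CPM in WT-veh wells (median 24.8), 12.5 to 36.6 in WT-PMX (20.4), 33.4 to 69.9 in Arc-veh (40) and 29.7 to 49.8 in Arc-PMX (37.6), with 7 of 12 Arc wells above all WT wells and a log2 fold change of 0.87 ± 0.19 (adjusted p = 0.000498). The other chain, *Tap1*, had 7, 12, 50 and 26 transcripts over the 4 groups.

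The study reports the heavy chains *H2-D1* and *H2-T23* as strongly lower in astrocytes of Arc-PMX than of Arc-veh mice. It showed relative expression by group in astrocytes re-clustered from its integrated cells and nuclei. The values here are transcripts and CPM per well of nuclei alone, so the measures differ. Neither passed the filter here, so this comparison was fitted for them only without the filter, where edgeR called 0 members. *H2-D1* had 3, 11, 18 and 13 transcripts over the 4 groups of nuclei, with medians over wells of 0.0, 2.48, 5.11 and 2.9 CPM and overlapping ranges that reached 3.57, 6.48, 11.0 and 8.06 CPM. *H2-T23* had 2 to 7 transcripts per group and medians of 0.0, 0.0, 2.3 and 0.0 CPM, so that a difference was not detectable at this depth. *H2-K1*, another classical heavy chain, had 14, 24, 42 and 41 transcripts and *B2m*, the light chain, had 14, 21, 48 and 18. The peptide-loading protein *Tapbp* had 24, 38, 64 and 61, and the immunoproteasome subunits *Psmb8*, *Psmb9* and *Psmb10* had 1, 2, 11 and 2, then 1, 0, 7 and 9, and then 5, 7, 22 and 12. Of the heavy chains, 9.63% (*H2-K1*), 12.8% (*H2-D1*) and 13.6% (*H2-T23*) of exon windows occur in other genes, so their counts are uncertain.

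The members that passed the filter were longer by median, though the spans of tested and untested members overlapped. The tested members spanned 12.8 to 110.2 kb (median 38.7 kb), whereas the 23 untested members spanned 1.4 to 48.4 kb (median 6.5 kb). The part of gene length in what passed the filter was not tested. Without the filter all 36 members were fitted together with 23464 genes, and 24 were called higher in Arc minus WT, where 4.79% of all genes were. The added calls were *Bst2*, *Ifit2*, *Ifit3*, *Irf7*, *Irf9*, *Mx1*, *Oas2*, *Psmb9*, *Rsad2*, *Tap1*, *Usp18* and *Xaf1*. Among those with transcripts in every group, *Rsad2* had a log2 fold change of 2.55 (adjusted p = 7.74e-11), *Irf9* of 1.84 (adjusted p = 3.47e-06), *Xaf1* of 1.76 (adjusted p = 1.46e-06), *Ifit2* of 1.69 (adjusted p = 0.000228) and *Tap1* of 1.45 (adjusted p = 0.00401). The median over the 36 members was 1.57, against 0.0572 over all genes of that fit, and 35 of the 36 were above 0. In Arc-veh minus WT-veh 19 were called without the filter against 2.84% of all genes.

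**Figure D2:**
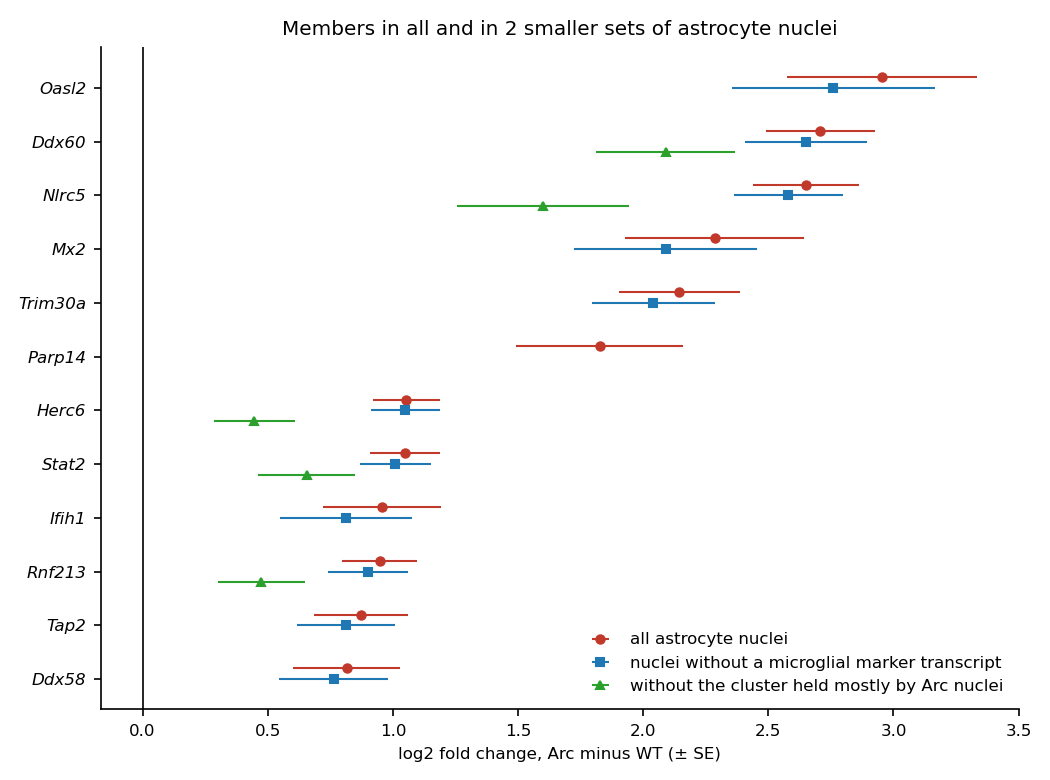
Log2 fold change of Arc minus WT in astrocyte nuclei for the 12 called members, with SE bars, over all 5443 nuclei, without the cluster held mostly by Arc nuclei, and without nuclei that hold a microglial marker transcript. A missing point is a gene that did not pass the filter on low counts in that subset.

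The astrocyte nuclei fell into 4 clusters, and cluster 14, whose leading genes included *Gfap* and *Osmr*, held 638 of the 1207 Arc-veh and 619 of the 1285 Arc-PMX nuclei but 18 of the 1480 WT-veh and 31 of the 1471 WT-PMX nuclei. Without this cluster 4137 nuclei remained and 5 of the 12 called members could be tested. The share of all genes called in this subset was not counted, and the 5 had already been picked as called in all nuclei. *Ddx60* (2.09 ± 0.28, adjusted p = 1.15e-06), *Nlrc5* (1.60 ± 0.34, adjusted p = 0.00144) and *Stat2* (0.66 ± 0.19, adjusted p = 0.0283) were still higher in Arc. *Herc6* was at 0.45 ± 0.16 (adjusted p = 0.0971) and *Rnf213* at 0.47 ± 0.17 (adjusted p = 0.100). In Arc-veh minus WT-veh 2 of these 5 were called without the cluster, *Ddx60* (1.86 ± 0.41, adjusted p = 0.00534) and *Nlrc5* (1.93 ± 0.48, adjusted p = 0.0154). There the calls of *Stat2* (0.67 ± 0.29, adjusted p = 0.29), *Rnf213* (0.63 ± 0.25, adjusted p = 0.222) and *Herc6* (0.19 ± 0.24, adjusted p = 0.826) were lost. The difference in cluster makeup and the members' rise moved together, and the part of the one in the other was not tested.

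Microglial markers were low in astrocyte nuclei of all 4 groups. The 14 markers summed to medians of 49.5, 52.3, 55.5 and 70.8 CPM in the 4 groups of astrocyte nuclei, over well ranges of 29.5 to 68.1, 30.0 to 90.7, 42.5 to 69.7 and 44.1 to 92.7, compared with 13000, 11500, 9930 and 9980 in microglial nuclei. Of the 14 markers 7, 6, 9 and 10 had a transcript, *Tyrobp* had none in any group, and the 2 that could be tested were not called. *Tyrobp* also had none in WT-veh microglial nuclei, so its absence here says little about stray microglial RNA. In the 4829 astrocyte nuclei without a transcript of any of these markers, 11 of the called members were tested and all 11 were still called, with log2 fold changes of 0.76 to 2.76. The share of all genes called in these nuclei was not counted. They were most of the 5443 astrocyte nuclei, and at such low marker levels a nucleus can lack these transcripts by chance. The subset was thus not shown to be free of stray microglial RNA. The well Arc-veh F1 was the highest of the Arc wells for 9 of the 12 called members, and without it all 12 were still called at 0.67 to 2.80. Of 8 transcripts linked to ribosomal RNA, *AY036118* was higher in Arc (1.46 ± 0.40, adjusted p = 0.00649) and reached 17600 CPM in an Arc well, and *Cdk8* was lower (-0.96 ± 0.24, adjusted p = 0.00209). With these transcripts removed the 12 calls stood.

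To count nuclei with a member transcript at equal depth, each nucleus was thinned to 500 transcripts. So few are left then that the share largely follows the summed level of the members. It cannot tell more nuclei with members from more member transcripts per nucleus. At that depth at least 1 transcript of the set was found in 16.7% (WT-veh) and 16.2% (WT-PMX) of WT astrocyte nuclei and in 32.1% (Arc-veh) and 30.7% (Arc-PMX) of Arc astrocyte nuclei. A separate random thinning, used for the values by well, gave 16.3%, 15.2%, 32.1% and 31.5% over the 4 groups. In it the share over wells was 12.2% to 19.2% in WT and 25.7% to 42.8% in Arc, with no overlap. Before thinning the shares were 39.3%, 46.2%, 72.9% and 71.7% at median depths of 1350, 1620, 2450 and 2160 transcripts. Nuclei with transcripts of at least 2 different members made up 2.10%, 1.70%, 7.62% and 8.87% in the first thinning and 1.76%, 1.97%, 9.61% and 7.16% in the separate one. For this share of 2 or more members the order of the vehicle and PMX205 groups differed between the thinnings in both genotypes, so none is read from it. In neurons the thinned share was 3.25%, 3.10%, 3.24% and 3.63%, and the median depths before thinning were 6960, 7810, 10600 and 9390 transcripts. *Stat2* alone was found in 1.57%, 1.33%, 1.34% and 1.29% of thinned neuronal nuclei, and stray RNA and the neurons' own transcripts cannot be told apart in these shares. The astrocyte shares of all 4 groups lay above the neuronal ones.

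**Figure D3:**
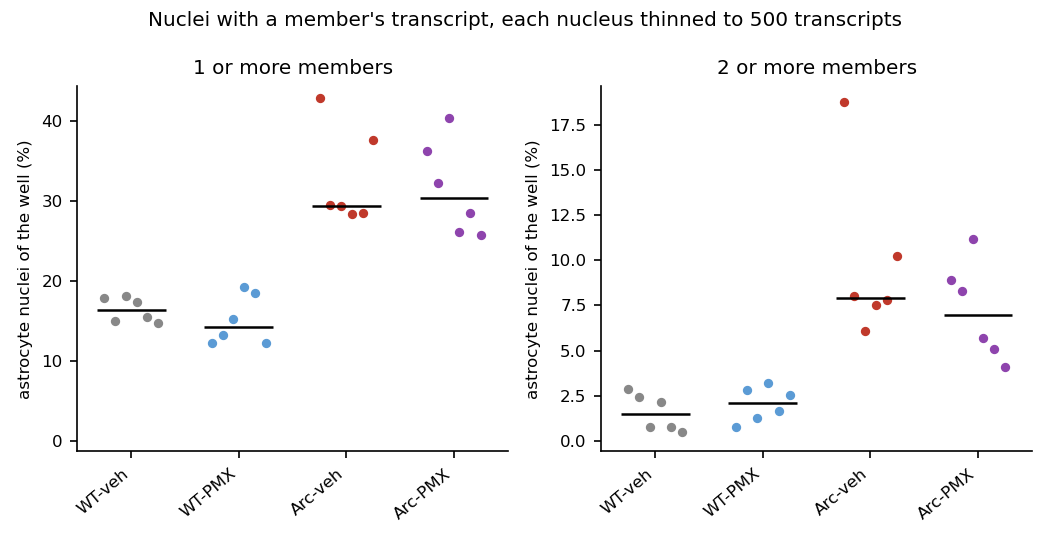
Percent of astrocyte nuclei in each well with transcripts of at least 1 (left) or at least 2 (right) of the 36 members after the separate thinning of every nucleus to 500 transcripts, with 1 point per well, 6 wells per group and a line at the median. In the left panel the Arc wells lie between 25.7% and 42.8% and the WT wells between 12.2% and 19.2%.

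By gene, *Ddx60* was detected in 0.676% and 0.545% of thinned WT-veh and WT-PMX nuclei and in 4.56% and 4.59% of Arc-veh and Arc-PMX nuclei. *Nlrc5* was detected in 0.878%, 0.681%, 3.65% and 3.42%, and *Rnf213* in 5.07%, 4.49%, 9.11% and 7.63%. The corresponding shares of neuronal nuclei were at most 0.115% for *Ddx60*, 0.133% for *Nlrc5* and 0.304% for *Rnf213*.

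PMX205 was compared within each genotype, the comparison the treatment was designed for. In Arc astrocyte nuclei 0 of the 13 tested members were called in Arc-PMX minus Arc-veh by edgeR, 0 were at an unadjusted p under 0.05 and DESeq2 made 0 calls, where 0.0137% of all genes were called. The point estimates ran from -0.51 ± 0.34 (*Parp14*) to 0.28 ± 0.34 (*Oasl2*) with a median of -0.20. The smallest unadjusted p in the edgeR fit was 0.0765, for *Nlrc5* at -0.38 ± 0.21, whose wells overlapped between 62.4 and 88.6 CPM.

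Beside these, the Arc-veh minus WT-veh differences of the same genes were 2.80 ± 0.31 for *Nlrc5* (adjusted p = 8.75e-09), 2.56 ± 0.31 for *Ddx60* (adjusted p = 5.82e-08) and 1.52 ± 0.44 for *Parp14* (adjusted p = 0.0146), and the 2 contrasts share the Arc-veh wells. Without the filter 25 of the 36 members lay below 0 in Arc-PMX minus Arc-veh, with a median of -0.23 against -0.00654 over all genes, 4 had an unadjusted p under 0.05 and edgeR called 0, where 0.0256% of all genes were called.

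In WT astrocyte nuclei 0 of the 13 members were called for PMX205 by edgeR and 0 by DESeq2, 0 had an unadjusted p under 0.05, and 0.0% of all genes were called, and the estimates ran from -1.13 (*Parp14*) to 0.89 (*Mx2*). The difference of the PMX205 effects between genotypes was called for 0 of the 13 members by edgeR and 0 by DESeq2 (0 at an unadjusted p under 0.05, 0.0% of all genes) and ran from -1.21 (*Mx2*) to 1.36 (*Oasl2*). In the self-test on simulated counts of this size, 92.9% of genes changed 2-fold in Arc minus WT were recovered, a comparison with more wells than those of PMX205 within a genotype. The PMX205 contrasts were not simulated. Their SEs reached 0.81 (*Oasl2*) and 0.71 (*Mx2*) in WT and 0.88 and 0.79 for the difference between genotypes. The 0 calls there therefore do not exclude a 2-fold change of such sparse members.

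**Figure D4:**
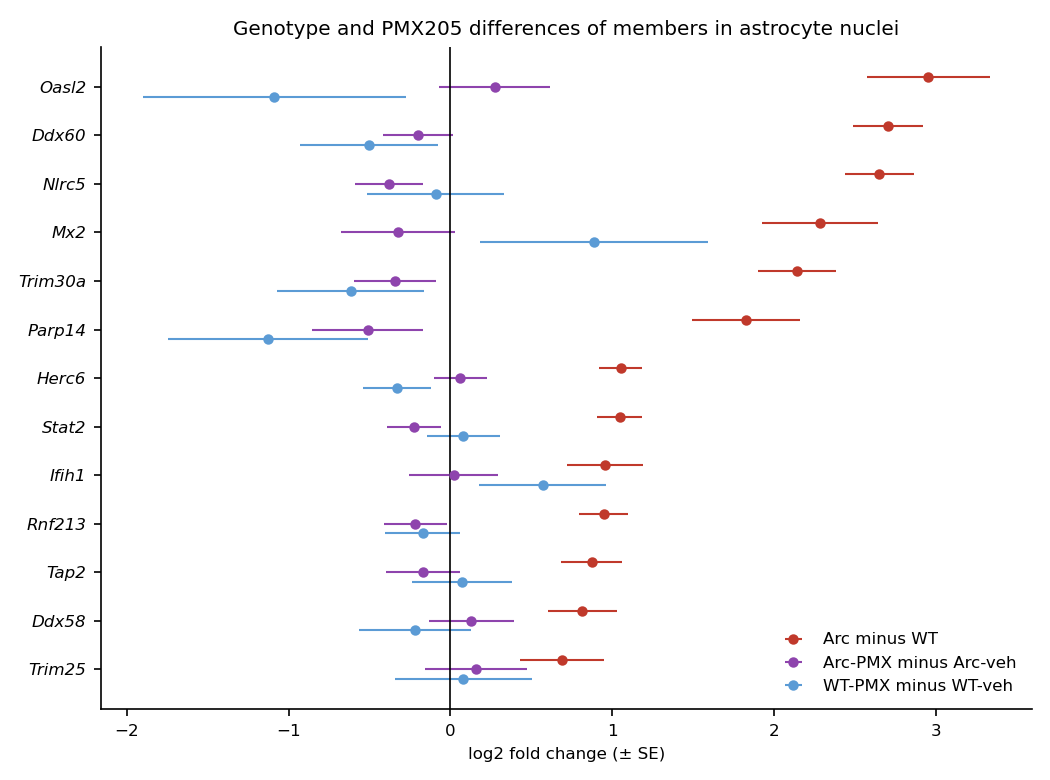
Log2 fold change of each tested member in astrocyte nuclei, with SE bars, for Arc minus WT, for Arc-PMX minus Arc-veh and for WT-PMX minus WT-veh, which share wells. The Arc minus WT values lie between 0.69 and 2.95, and the PMX205 differences lie between -0.51 and 0.28 in Arc and between -1.13 and 0.89 in WT.

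Microglial nuclei were few in WT. At least 10 were found in 4 wells of WT-veh and 5 of WT-PMX, and in all 6 wells of both Arc groups. *Nlrc5* was the leading member, with 0.0 to 192.0 CPM in WT-veh wells (median 54.1), 0.0 to 59.3 in WT-PMX (0.0), 125 to 335 in Arc-veh (214) and 137 to 287 in Arc-PMX (184). In 7 of 12 Arc wells it exceeded all WT wells, and the log2 fold change was 2.77 ± 0.47 (adjusted p = 3.67e-05). *Rnf213* had 114 to 575 CPM in WT-veh wells (median 201), 54.5 to 500 in WT-PMX (172), 240 to 609 in Arc-veh (348) and 249 to 371 in Arc-PMX (300), and was called at 0.72 ± 0.25 (adjusted p = 0.0384) although the ranges overlapped.

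These 2 of 6 tested members were called higher in Arc minus WT, where 11.7% of all genes were, and DESeq2 called 3. Values for the others were 0.84 for *Trim30a* (adjusted p = 0.0573), 0.92 for *Ddx60* (adjusted p = 0.156), 0.36 for *Parp14* and 0.30 for *Herc6*. In Arc-veh minus WT-veh *Nlrc5* alone was called, at 1.83 ± 0.56 (adjusted p = 0.0283), against 6.96% of all genes. The call of *Rnf213* in Arc minus WT was lost in 15 of 21 fits with a well left out (log2 0.60 to 0.92 over all 21), 9 of which left out an Arc well, and with doublets kept. That of *Nlrc5* in Arc-veh minus WT-veh was lost in 5 of 21, those without Arc-veh F1 or M2 and without WT-veh F2, M1 or M2 (log2 1.55 to 1.82), and with doublets kept. WT-veh F2 and Arc-veh F1 were among the wells that ended both calls.

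Without the filter 10 of the 36 members were called higher in Arc microglial nuclei against 3.65% of all genes, but the median over all genes of that fit was itself at 0.514, beside 1.19 for the members. The wells compared held 132, 120, 693 and 558 microglial nuclei in the 4 groups, so that transcript numbers are not on 1 scale. *B2m* had 2, 12, 110 and 77 transcripts in these nuclei and medians over wells of 0.0, 90.3, 110 and 90.1 CPM, with a pooled level of 55.1 CPM in WT and 108 in Arc (log2 1.81, adjusted p = 0.00622). The WT-PMX wells overlapped with those of both Arc groups, and 4 of 12 Arc wells were above all WT wells. *H2-D1* had 0, 4, 51 and 33 transcripts and medians of 0.0, 17.2, 58.1 and 40.5 CPM. *Usp18* had 0, 0, 20 and 24 transcripts, with every Arc well above every WT well. For PMX205 in Arc microglial nuclei edgeR called 0 members, 0 of the 6 were at an unadjusted p under 0.05, and DESeq2 made 0 calls, where 0.0% of all genes were called.

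In WT microglial nuclei PMX205 gave 0 calls of members by edgeR and 0 by DESeq2, where 0.0% of all genes were called. All 6 estimates lay below 0, and 2 were at an unadjusted p under 0.05 in the edgeR fit. How many of all genes tested did either was not counted, so no trend of the set is read from this. Without the filter 20 of the 36 members lay below 0 and 16 above, with a median of -0.172 against 0.0426 over all genes. *Trim30a* had 171 to 319 CPM in WT-veh wells (median 240) and 0.0 to 296 in WT-PMX (22.6), with a log2 fold change of -1.55 ± 0.59 (unadjusted p = 0.0129, adjusted p = 0.707). *Parp14* had 94.7 to 383 CPM in WT-veh wells (median 218) and 0.0 to 121 in WT-PMX (22.6), with a log2 fold change of -1.48 ± 0.64 (unadjusted p = 0.0273, adjusted p = 0.787). The difference of the PMX205 effects between genotypes was called for 0 of the 6 members by edgeR and 0 by DESeq2, against 0.0% of all genes, and the same 2 genes were at an unadjusted p under 0.05, *Trim30a* at 1.60 ± 0.64 and *Parp14* at 1.74 ± 0.70. Both contrasts rest on the few WT wells with microglial nuclei.

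Single-cell microglia gave a smaller comparison, with at least 10 cells in 3 wells of each WT group, 5 of Arc-veh and 6 of Arc-PMX, and the filter let 2 members through. *Trim30a* had 152, 306 and 359 CPM in the WT-veh wells, 84.2, 95.7 and 154 in the WT-PMX wells, 146 to 385 in Arc-veh wells (median 264) and 220 to 462 in Arc-PMX (median 360). It was called in Arc minus WT at 0.96 ± 0.27 (adjusted p = 0.0216), where 7.35% of all genes were called higher, and not in Arc-veh minus WT-veh (0.22, adjusted p = 0.897), where edgeR called 0.0% of all genes higher. The call in Arc minus WT was lost in 4 of 17 fits with a well left out, at 1.02 without WT-PMX F2, 0.99 without WT-PMX M2, 0.91 without WT-PMX M3 and 0.88 without WT-veh F3. Without WT-veh F2 it stood at 1.17 (adjusted p = 0.0398). The wells of Arc-veh and WT-veh overlapped throughout. *Rnf213* was not called, and in Arc-PMX minus Arc-veh it was at 0.48 ± 0.23 (adjusted p = 0.628), with 0 members called by edgeR or DESeq2, 0 at an unadjusted p under 0.05 and 0.0% of all genes called. In WT-PMX minus WT-veh *Trim30a* was at -1.27 ± 0.53 (edgeR unadjusted p = 0.0249, adjusted p = 0.412), and the difference of the PMX205 effects between genotypes was 1.48 ± 0.57 (edgeR unadjusted p = 0.0164, adjusted p = 0.443). In both of these contrasts edgeR and DESeq2 called 0 of the 2 members, 1 was at an unadjusted p under 0.05, and 0.0% of all genes were called.

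Without the filter *B2m* was called in these cells. It had 0.0, 18.9 and 102 CPM in the WT-veh wells, 23.9, 38.6 and 42.1 in the WT-PMX wells, 84.9 to 539 in Arc-veh wells (median 244) and 37.2 to 237 in Arc-PMX (median 88.1). The Arc minus WT difference was 3.13 (adjusted p = 9.08e-05) beside a median of 0.622 over all genes, and *Nlrc5* was the other member called (2.08, adjusted p = 0.0109), against 0.9% of all genes, whereas *Trim30a* was no longer called. This unfiltered fit was not repeated with any well left out, WT-veh F2 included. In Arc-PMX minus Arc-veh *B2m* fell by 1.64 on the log2 scale (edgeR adjusted p = 0.00851), where 0.131% of all genes were called. It was the only member called in this contrast among the unfiltered fits of all types. Its wells overlapped between 84.9 and 237 CPM. Arc-veh F1 (528) and M2 (539) were the highest, whereas Arc-veh F2 (84.9) and F3 (125) lay below Arc-PMX F1 (217) and F3 (237). Of the 36 members 23 lay above 0 in this contrast and 13 below, with a median of 0.124 against -0.214 over all genes. The subclusters of these cells differed in group makeup: the 2 clusters 4 and 7 held 335 and 328 Arc-veh cells, 59 and 22 Arc-PMX cells and 3 and 0 WT-veh cells. *B2m* was among the leading genes of cluster 4. The mitochondrial ribosomal RNAs *mt-Rnr2* (1.34 ± 0.40, adjusted p = 0.0277) and *mt-Rnr1* (1.22 ± 0.39, adjusted p = 0.0411) were also higher in Arc single-cell microglia, and their part in these results was not tested.

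In oligodendrocyte nuclei *Nlrc5* had 0.0 to 26 CPM in WT-veh wells (median 1.34), 0.0 to 20.9 in WT-PMX (8.07), 26.7 to 123 in Arc-veh (55.7) and 29.5 to 76.6 in Arc-PMX (53.7). All 12 Arc wells were above all WT wells, and the log2 fold change was 3.17 ± 0.40 (adjusted p = 1.04e-07). *Rnf213* had 0.0 to 48.4 CPM in WT-veh wells (median 27.5), 3.56 to 30.6 in WT-PMX (21.6), 40 to 76.1 in Arc-veh (55.2) and 21.0 to 51.4 in Arc-PMX (37.5), and was called at 1.05 ± 0.26 (adjusted p = 0.00704), with 6 Arc wells above all WT wells.

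These were the 2 called of 4 tested in Arc minus WT, where 3.76% of all genes were called higher. Both were called in Arc-veh minus WT-veh, against 2.21% of all genes, and *Rnf213* was lost there in 11 of 24 fits with a well left out (log2 0.97 to 1.38 over all 24). These were the fits without WT-veh F1, F2, F3, M1 or M2, those without Arc-veh F1, F2, F3, M1 or M2, and that without Arc-PMX F1. It was also lost under DESeq2, without the filter on low counts and with cells named by highest marker score. For PMX205 in Arc edgeR called 0 of the 4 and DESeq2 0, where 0.0215% of all genes were called. The unadjusted p of *Rnf213* in that edgeR contrast was 0.0308, at -0.66 ± 0.30. Without the filter 6 members were called higher in Arc minus WT against 1.22% of all genes. *Ddx60* had 1, 2, 38 and 23 transcripts in the 4 groups of oligodendrocyte nuclei and *H2-D1* had 3, 3, 26 and 20, and the others added were *B2m* and *Herc6*.

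**Figure D5:**
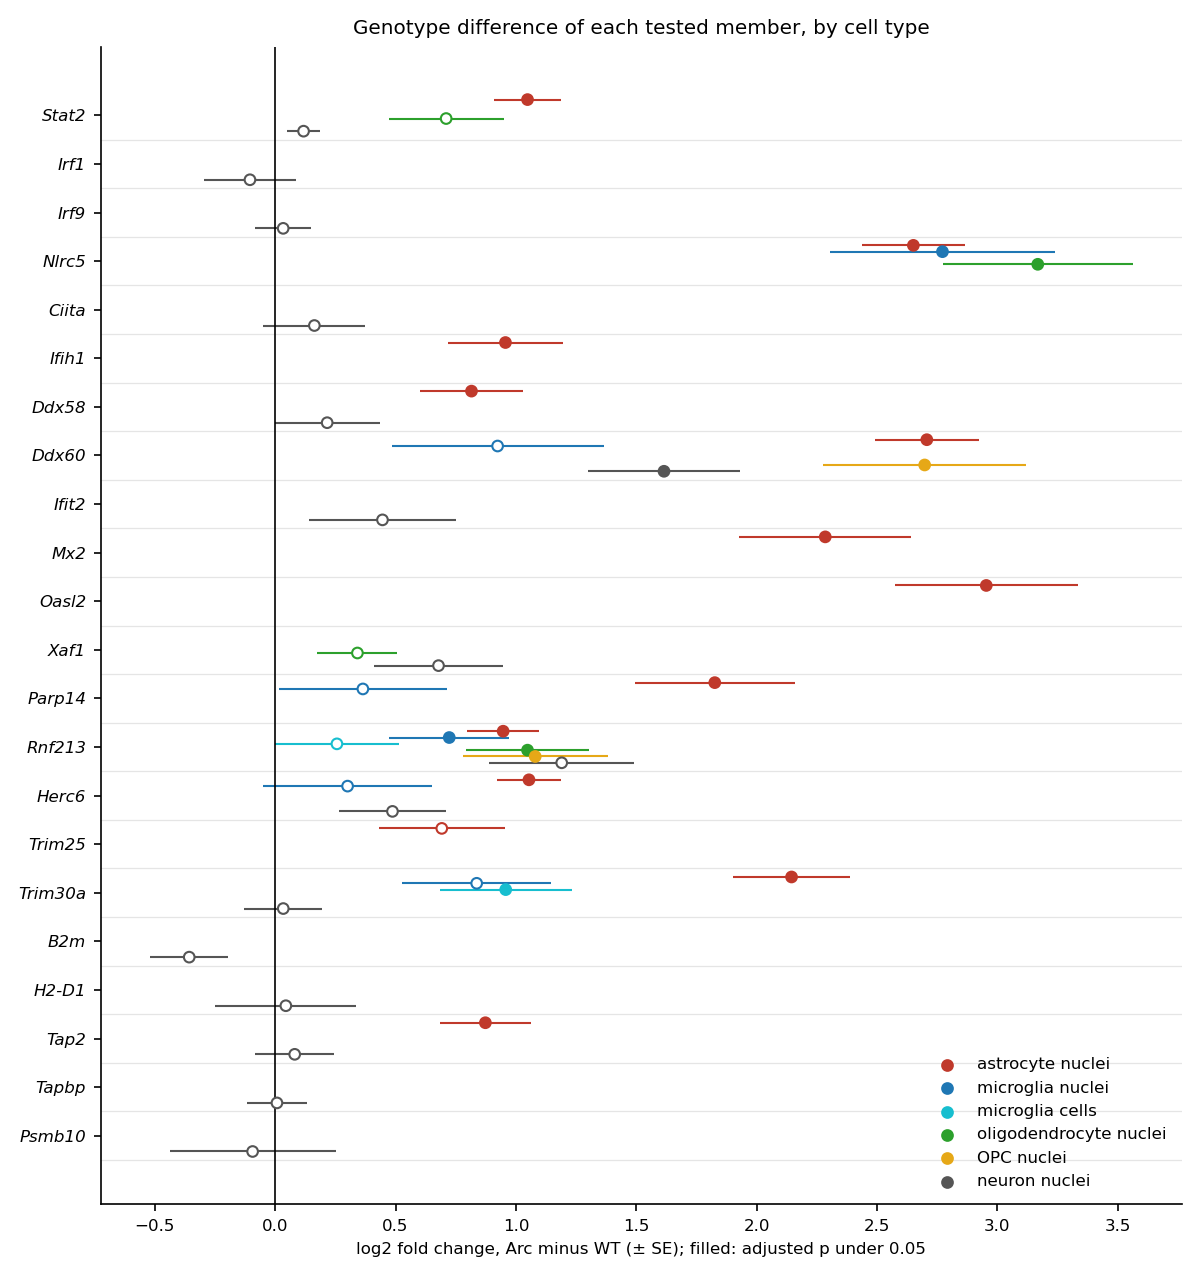
Log2 fold change of Arc minus WT, with SE bars, for every member tested in at least 1 of 6 cell types, with 1 colour per type, filled points where the adjusted p was under 0.05 and open points elsewhere. Nlrc5 and Ddx60 are called in 3 types each, and Rnf213 in 4.

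OPC nuclei showed *Ddx60* and *Rnf213*. *Ddx60* had 0.0 to 36.2 CPM in WT-veh wells (median 2.58), 0.0 to 54.8 in WT-PMX (6.63), 22.1 to 93.5 in Arc-veh (49.8) and 21.3 to 93.4 in Arc-PMX (81.0), with a log2 fold change of 2.70 ± 0.42 (adjusted p = 1.26e-05). *Rnf213* had 12.1 to 53.3 CPM in WT-veh wells (median 30.0), 7.17 to 109 in WT-PMX (31.6), 34.6 to 188 in Arc-veh (63.6) and 33.2 to 186 in Arc-PMX (100), with a log2 fold change of 1.08 ± 0.30 (adjusted p = 0.0358). Ranges overlapped for both. With single wells left out the call of *Rnf213* in Arc minus WT was lost in 12 of 24 fits, among them the fit without Arc-veh F1 (0.93 on the log2 scale, adjusted p = 0.0863), and it was also lost when cells were named by their highest marker score. Only these 2 members passed the filter, where 1.78% of all genes were called higher, and in Arc-veh minus WT-veh *Ddx60* was called (2.79 ± 0.64, adjusted p = 0.00945) against 1.0% of all genes. That call was lost without WT-veh M1 (2.58), without WT-veh M2 (2.48) and with cells named by highest marker score (2.66). In 4 of 24 fits with a well left out *Ddx60* did not pass the filter, so that 6 of 24 gave 0 calls by edgeR in Arc-veh minus WT-veh.

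Without the filter *Nlrc5* (3, 2, 23 and 31 transcripts in the 4 groups) and *Ifih1* (1, 0, 6 and 15) were added in OPC nuclei, against 0.461% of all genes. PMX205 in Arc gave 0 calls of members there by edgeR or DESeq2 and 0 at an unadjusted p under 0.05, where 0.0323% of all genes were called.

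In neuronal nuclei *Ddx60* was the single member called of 16 tested, where 0.161% of all genes were called higher, and DESeq2 called 2. It had 0.0 to 0.792 CPM in WT-veh wells (median 0.424), 0.0 to 0.765 in WT-PMX (0.451), 0.616 to 4.5 in Arc-veh (1.08) and 1.02 to 2.67 in Arc-PMX (1.24). In 11 of 12 Arc wells it was above all WT wells, with a log2 fold change of 1.61 ± 0.31 (adjusted p = 0.0174), while *Rnf213* was at 1.19 ± 0.30 (adjusted p = 0.117). Arc wells of astrocyte nuclei held 62.5 to 283 CPM of *Ddx60*. The part of stray astrocyte or microglial RNA in the neuronal call was not tested. In Arc-veh minus WT-veh edgeR called 0 members (3 were at an unadjusted p under 0.05, and DESeq2 made 0 calls), where 0.0603% of all genes were called. Without the filter *Mx2*, *Oasl2* and *Rnf213* joined *Ddx60*, against 0.358% of all genes. PMX205 in Arc gave 0 calls in neurons by edgeR or DESeq2 and 0 at an unadjusted p under 0.05, with 0.0% of all genes called.

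Microglial markers summed to medians of 45.8 to 59.9 CPM over the 4 groups in oligodendrocyte nuclei, 28.2 to 45.0 in OPC nuclei and 25.8 to 27.9 in neuronal nuclei, where 1 Arc-PMX well reached 71.8. In nuclei without any such transcript both members stayed called in oligodendrocytes, *Ddx60* stayed called in OPC nuclei (2.83 ± 0.43, adjusted p = 6.05e-06) and *Rnf213* did not (1.02 ± 0.32, adjusted p = 0.0947). In neurons *Ddx60* did not pass the filter in those 18920 nuclei, so its call was not tested there. In these types too a nucleus can lack a marker transcript by chance, so the subsets were not shown to be free of stray microglial RNA.

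In the remaining types no member was called by edgeR in Arc minus WT. Endothelial cells of the CD11b-selected preparation had 5 members tested, of which 2 were at an unadjusted p under 0.05 in edgeR with 0 calls by DESeq2, where 1.08% of all genes were called higher. The leading gene was *B2m* at 2.75 ± 0.81 (adjusted p = 0.0801), but these wells also held microglial markers at medians of 3850 to 6980 CPM, and their part in it was not tested. In endothelial and fibroblast nuclei *Rnf213* was the single member tested, at 0.47 ± 0.41 and 0.29 ± 0.43, and in choroid plexus nuclei 3 members were tested. In these 3 types edgeR called 0 members and DESeq2 0, 0 had an unadjusted p under 0.05 and 0.0% of all genes were called higher. The self-test recovered 32.1%, 25.2% and 27.2% of 2-fold changes in endothelial, fibroblast and choroid plexus nuclei, so a change of that size would often be missed there.

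Across nuclei types microglia had the highest pooled level for 21 of the 36 members in Arc and 18 in WT, as a description of these libraries. Some of these leads rested on very few transcripts, as for *Isg15* in Arc (0.576 CPM) and *Irf7* in WT (3.94 CPM). In Arc microglial nuclei led for *Rnf213* (325 CPM), *Trim30a* (238), *Nlrc5* (214), *Parp14* (139) and *Ddx60* (134). Astrocyte nuclei led for *Herc6* (150 CPM), *Rsad2* (19.6) and *Ifit3* (8.32) in Arc and for 0 members in WT. Endothelial nuclei led for the heavy chains *H2-K1* (67.5 CPM) and *H2-D1* (56.6) in Arc, and oligodendrocyte nuclei for *Xaf1* in Arc (81.5) and in WT (67.5).

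Other genes of the pathway were counted from lists of their own in astrocyte nuclei. In the types compared, transcripts of interferons themselves were nearly absent. Of 11 ligand genes *Ifnk* had 7 and *Ifna2* had 2 transcripts over all these types, and the others had none. T cells and unnamed clusters were not among these types, so ligand transcripts in them were not counted. Of 17 receptors and signalling proteins 10 were tested in astrocyte nuclei and 3 were higher in Arc, beside 11.5% of all genes, with a median log2 fold change of 0.101 over the 10. Those higher included *Stat3* (1.25 ± 0.11, adjusted p = 7.13e-12) and the phosphatase *Ptpn2* (0.37 ± 0.13, adjusted p = 0.0299). *Stat3* lay between 94.8 and 177 CPM in WT wells and between 234 and 416 in Arc wells, with no overlap. Of 13 nucleic acid sensing genes 5 were tested and 2 were higher, beside 11.5% of all genes, the RNA-dependent kinase *Eif2ak2* (0.64 ± 0.13, adjusted p = 0.000111) and the kinase *Ikbke* (0.59 ± 0.20, adjusted p = 0.0259).

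Of 32 other interferon-induced genes 8 were tested in astrocyte nuclei, 7 were higher and 1 was lower, where 11.5% of all genes were called higher and 8.58% lower. As with the members, a gene can pass the filter through the genotype in which it is high, so these are not shares of the lists. The guanylate-binding proteins *Gbp3* (2.72 ± 0.35, adjusted p = 7.01e-08), *Gbp2* (3.06 ± 0.46, adjusted p = 1.55e-06) and *Gbp7* (1.42 ± 0.22, adjusted p = 3.16e-06) and the immunity-related GTPase *Irgm1* (2.16 ± 0.30, adjusted p = 3.76e-07) rose. *Rtp4*, an interferon-induced zinc finger protein, went the other way, from 15.6 to 80.5 CPM in WT wells (median 57.0) to 8.06 to 62.6 in Arc wells (30.1), with overlap (-0.90 ± 0.21, adjusted p = 0.00149). In oligodendrocyte nuclei, a value looked up after this fall had been seen, *Rtp4* was higher in Arc, at 59.6 to 131 CPM against 0.0 to 48.4 in WT (3.20 ± 0.28, adjusted p = 1.69e-11). Of 14 further class I pathway genes 4 were tested in astrocyte nuclei and 0 were called by edgeR, and of 10 MHC class II genes none could be tested.

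In microglial nuclei the nuclear body protein *Sp100* (1.86 ± 0.47, adjusted p = 0.00356), 1 of 2 tested other interferon-induced genes, was higher in Arc, where 11.7% of all genes were. Of 10 receptors and signalling proteins tested there, 1 was higher and 1 was lower. The lower was the interferon-gamma receptor chain *Ifngr1* (-0.998 ± 0.344, adjusted p = 0.0389). In single-cell microglia *Ctss*, the protease that trims the invariant chain of MHC class II, was higher in Arc (1.19 ± 0.33, adjusted p = 0.0181), where 7.35% of all genes were.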

How the data were processed

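RNA of hippocampal cells and nuclei was barcoded in 48 first-round wells and sequenced as 7 sublibraries. Counts were deposited per barcode and gene as the authors' Parse split-pipe run gave them, without normalization, and the submitters' notes name bcl2fastq and mm10. Read placement between near-identical genes and the strand setting are not given in the sources used here. Of 1516119 barcodes listed, 48969 had more than 300 and fewer than 50000 transcripts, at most 10% (cells) or 1% (nuclei) mitochondrial transcripts and more than 300 (cells) or 400 (nuclei) genes. Among them 4216 barcode combinations occurred in more than 1 sublibrary and were kept apart as separate cells. Doublets were removed by Scrublet (expected rate 0.06, score above 0.25) in scanpy 1.11.5, and each preparation was clustered with 15 neighbours on 30 principal components of 2000 variable genes at a resolution of 1.0 (cells) or 1.5 (nuclei). Clusters were named from marker genes where at least 3 markers of a type were detected.

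Counts were summed over sublibraries per well and type, and wells with at least 10 cells were fitted by edgeR 4.0.16 (R 4.3.3) with TMM scaling, filterByExpr, all 4 groups in a single quasi-likelihood fit, sex as covariate and Benjamini-Hochberg adjustment over all genes of a type and contrast. Printed CPM are scaled to all transcripts of the type in the well, not to the TMM-scaled library. The SE was derived as the absolute log2 fold change divided by the square root of the quasi-likelihood F. For some genes the edgeR p was larger than this SE would give. The fit was tested on simulated counts with 200 changed genes. Alternatives were DESeq2 1.42.0, size factors by relative log expression, no filter, no covariate, only the groups compared, a replicate block, ribosomal RNA-linked transcripts removed, doublets kept, a stricter cell filter at 500 for transcripts and for genes, types given by each cell's highest marker score, and each well left out. The fits without the Arc-held astrocyte cluster and without nuclei holding microglial marker transcripts were added after seeing the data.

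All members were reported by role, with full statistics for those called in any contrast. For *H2-D1* and *H2-T23* in astrocyte nuclei, which did not pass the filter, transcripts and medians over wells were given. From each other pathway list up to 5 called genes with the smallest adjusted p were named in astrocytes and microglia. The members, the other lists and the tests were chosen with earlier results of these data known. Shared windows are 50-base windows of a member's exons that occur in another gene's transcripts. T cells, pericytes, ependymal cells and unnamed clusters were not analysed for the members beyond their levels. A gene of the receptor and signalling list is not reported here.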

Additional observations from a re-analysis of the deposited data

Results flagged for a closer look

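In 12 of 78 groups of wells of the called members, the highest or lowest well lay apart from the rest by Dixon's test at the 95% level. Chance alone does this for about 1 in 20 groups of independent, normally distributed values. The values here are few and often sparse, and the same wells recur over genes and types, so that rate is not a measure for the 12 groups. Of these 12, 7 were the well Arc-veh F1. In astrocyte nuclei it had 283 CPM of *Ddx60* (82.6 to 141 in the other Arc-veh wells), 114 of *Ddx58* (25.9 to 45.4), 114 of *Trim30a* (38.7 to 64.6) and 80.9 of *Oasl2* (16.9 to 28.7). It also had 609 CPM of *Rnf213* in microglial nuclei (240 to 365), 188 of *Rnf213* in OPC nuclei (34.6 to 88.0) and 4.5 of *Ddx60* in neuronal nuclei (0.616 to 1.12). Without this well the 12 calls in astrocyte nuclei stood, at log2 fold changes of 0.67 to 2.80. Other calls were lost without it, by the edgeR fit. In Arc minus WT these were *Rnf213* in OPC nuclei (log2 0.93, adjusted p = 0.0863) and in microglial nuclei (log2 0.64, adjusted p = 0.0613). In Arc-veh minus WT-veh they were *Nlrc5* in microglial nuclei (log2 1.70, adjusted p = 0.0547) and *Rnf213* in oligodendrocyte nuclei (log2 1.16, adjusted p = 0.0921). With all wells the log2 fold changes were 1.08, 0.72, 1.83 and 1.25 in that order.

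Of the other 5, WT-veh F1 had 36.2 CPM of *Ddx60* in OPC nuclei (0.0 to 7.96 in the other WT-veh wells) and 26 of *Nlrc5* in oligodendrocyte nuclei (0.0 to 3.87). WT-veh F3 had 0.0 CPM of *Ddx58* in astrocyte nuclei (21.9 to 33.9). Arc-PMX F3 had 92.7 CPM of *Oasl2* in astrocyte nuclei (14.9 to 38.6). WT-PMX F2 had 500 CPM of *Rnf213* in microglial nuclei (54.5 to 181).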

How the results depend on the processing

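In astrocyte nuclei the 12 calls of Arc minus WT were 12 to 14 with any well left out and the 11 of Arc-veh minus WT-veh were 10 to 12, and no value changed sign in any type or setting when called. Without the filter on low counts the calls were 24 and 19 there, 10 and 3 in microglial nuclei, 4 and 2 in neurons, 4 in OPC nuclei (Arc minus WT) and 6 in oligodendrocyte nuclei (Arc minus WT). In single-cell microglia they were 2 and 1, with 1 in Arc-PMX minus Arc-veh, which the stricter cell filter also gave as 1. Naming cells by highest marker score gave 6 and 2 calls in microglial nuclei, 4 and 1 in single-cell microglia, 4 and 1 in oligodendrocytes and 1 and 0 in OPC nuclei. Without the Arc-held cluster astrocyte nuclei gave 3 and 2 calls, with fewer nuclei and fewer genes tested. Nuclei without a microglial marker transcript gave 1 call in OPC nuclei and 0 in neurons. With doublets kept, microglial nuclei gave 1 and 0. DESeq2 gave 2 in neurons and 1 in oligodendrocytes (Arc-veh minus WT-veh), and a fit of only the groups compared gave 7 in astrocyte nuclei and 1 in oligodendrocytes (Arc-veh minus WT-veh), where *Mx2*, *Ifih1*, *Oasl2* and *Parp14* and, in oligodendrocytes, *Nlrc5* no longer passed the filter and the other calls stood. Where no cause is named, the cause was not tested. For the alternatives other than no filter, shares of all genes called were not counted. Whether members gained or lost calls more than all genes did is therefore not known.

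With a well left out, calls ran from 1 to 3 in microglial nuclei (0 to 1 in Arc-veh minus WT-veh), 1 to 2 in single-cell microglia, 0 to 2 in OPC nuclei (0 to 1), 1 to 2 in oligodendrocytes (Arc-veh minus WT-veh) and 0 to 1 in endothelial cells. *Rnf213* in microglial nuclei was lost in 15 of 21 such fits, *Rnf213* in OPC nuclei in 12 of 24, *Rnf213* in oligodendrocyte nuclei (Arc-veh minus WT-veh) in 11 of 24 and *Trim30a* in single-cell microglia in 4 of 17.

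Replicate numbers did not pair the wells: in astrocyte nuclei same-numbered wells of different groups correlated at a median of 0.0336 (-0.249 to 0.262, with 7 of 36 pairs above 0.1). In neurons the median was 0.0568 (-0.617 to 0.568, with 16 of 36 pairs above 0.1), and none of the 6 types compared had every pair above 0.1. With the replicate number as a block, astrocyte nuclei gave 12 calls in Arc minus WT, microglial nuclei 3, oligodendrocytes 3, OPC nuclei 2, neurons 1 and single-cell microglia 0, where *Trim30a* (log2 0.99 in that fit) was no longer called. The filter on low counts left 13 of 36 members to test in astrocyte nuclei and 2 in OPC nuclei and in single-cell microglia.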
